A study of Mus musculus with 6 samples.

Results

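The genes described here encode the proteins of the mitochondrial ribosome. They were taken as every gene symbol that starts with Mrpl or Mrps followed by a digit, which gave 77 of the 23183 symbols listed in each library, and no symbol had to be left out as a pseudogene. Their mRNA levels were compared between CD4+CD8+ double positive (DP) thymocytes sorted from WT (Nsrp1 f/f) mice and from NSrp70-cKO (Nsrp1 f/f CD4Cre) mice, all C57BL/6 and 6 weeks old, with 3 libraries per genotype. Both genotypes carry the floxed Nsrp1 alleles, and Cre under CD4 regulatory elements removes NSrp70, a splicing regulator of nuclear speckles, from the time thymocytes switch on CD4. The question the design poses is which transcripts differ in DP thymocytes when NSrp70 is missing. The labels do not say whether the libraries of a genotype came from separate mice, so the p-values below measure only the spread between these libraries, which may be technical.

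The mitochondrial ribosome translates the few proteins that mitochondrial DNA encodes, all of them core subunits of the respiratory chain and of ATP synthase. Its RNAs are made inside the organelle, whereas all of its proteins are encoded in the nucleus, made in the cytosol and imported. The large subunit (MRPL proteins) forms peptide bonds and releases the new chain at the inner membrane, and the small subunit (MRPS proteins) binds and decodes the mRNA. Many of the proteins belong to families also found in bacterial ribosomes, and the others exist only in mitochondria. 

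Levels are FPKM, fragment counts divided by the length of the transcript and by the size of the library. Division by length allows only a rough comparison of levels between genes. The estimated depth was 20.7 to 20.9 M fragments (M, mega) in the WT libraries and 13.2 to 20.7 M in the NSrp70-cKO libraries. The FPKM values summed to between 521296 and 531517 in WT and between 701396 and 850548 in NSrp70-cKO libraries, so the choice of scaling matters, and counts over groups of members are also given with every library scaled to the same FPKM total. Pairs of WT libraries varied 1.26 to 1.34 times as much as counting noise and pairs of NSrp70-cKO libraries 5.34 to 11.7 times, so these counts are also given with the WT libraries counted as 1 sample. Nsrp1, listed under its older symbol Ccdc55, was at 20.2, 20.7 and 21.1 FPKM in WT and at 17.7, 15.8 and 15.0 in NSrp70-cKO libraries, a fall by 0.34 on the log2 scale (adjusted p = 0.00675) that was not called with WT as 1 sample (adjusted p = 0.184), and a level over the whole gene does not show how much of the floxed part was removed. Xist, transcribed from the inactive X chromosome of females, was at 69.8 to 72.0 FPKM in WT and 4.07 to 5.44 in NSrp70-cKO libraries, and Ddx3y, on the Y chromosome, was at 0 in the 3 WT libraries and at 26.2 to 35.0 in the others. Genotype and sex therefore cannot be told apart in these libraries, although none of the 77 genes lies on chromosome X or Y.

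Markers of the sorted cells were present in both genotypes. The 8 DP markers reported here summed to 5059 to 5101 FPKM in WT and to 6257 to 8120 in NSrp70-cKO libraries, with 5 called higher and 0 lower. At the same FPKM total 1 was called higher and 3 lower, after quantile normalization 1 higher and 4 lower, and with WT as 1 sample 0 either way. Cd4 and Cd8a had log2 fold changes of 0.40 and 0.68 with size factors, and Cd3e of -0.17 (not called, adjusted p = 0.215). The 4 markers of more mature thymocytes reported here, Ccr7, S1pr1, Klf2 and Il7r, were all called lower, with sums of 43.4 to 45.4 FPKM in WT and 6.81 to 9.43 in NSrp70-cKO libraries. All 21 listed proliferation genes, such as Mki67 and Pcna, were called higher, with sums of 1597 to 1598 FPKM in WT and 3106 to 3545 in NSrp70-cKO libraries, and at the same FPKM total 16 were called higher and 2 lower. Sums for the markers of B cells (0.984 to 1.81 FPKM), dendritic cells (0.358 to 0.712), natural killer cells (0.176 to 0.495), macrophages (3.40 to 6.38), thymic epithelium (1.92 to 3.89, with Foxn1 at 0 in every library) and double negative thymocytes (6.73 to 9.75) stayed low in both genotypes. The 4 erythroid markers summed to 1.96 to 2.72 FPKM in WT and 12.3 to 26.6 in NSrp70-cKO libraries, nearly all of it from the globin genes Hbb-b1 and Hba-a1. The part of proliferation, of maturation stage and of globin-bearing cells in the results below was not tested. In bulk RNA from sorted cells, a change in the share of cells of one type cannot be told apart from a change in the RNA each cell holds.

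The mitochondrial ribosomal protein genes were higher in NSrp70-cKO than in WT DP thymocytes almost throughout. All 77 reached 1 FPKM in 3 libraries or more, the filter on low values, so every member was tested. By limma on log2(FPKM + 1), 68 of the 77 (88.3%) were called higher at an adjusted p under 0.05, against 35.8% of the 10326 genes tested. A single member, Mrpl43, was called lower, against 29.8% of all tested genes, and the other 8 were not called. The median log2 fold change of the 77 was 0.72, with quartiles at 0.40 and 0.96, beside 0.04 for all tested genes. Of these, 13 members were called higher by 2-fold or more, against 3.88% of all tested genes. In 69 members the 3 NSrp70-cKO libraries lay above the 3 WT libraries without overlap, against 39.1% of tested genes, and in 3 they lay below, against 33.4%.

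These counts depended on how the WT libraries and the library totals were treated. With WT counted as 1 sample, whose spread is then assumed to be that of the NSrp70-cKO libraries, 29 members were still called higher and 0 lower, against 7.21% of tested genes called higher. When every library was scaled to the same FPKM total, the median of all tested genes moved by -0.49, to -0.45, and the members' median fell to 0.19, still 0.65 above that of all genes (0.68 above it with size factors). Under that scaling 32 members were called higher, against 8.74% of tested genes, and 10 lower, against 59.9%, and 72 of the 77 lay above the median of all genes. Quantile normalization left 64 members called higher (33.3% of tested genes). A correction for transcript length and GC content left 49 called higher (30.0% of tested genes), with a median of 0.36.

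**Figure D1:**
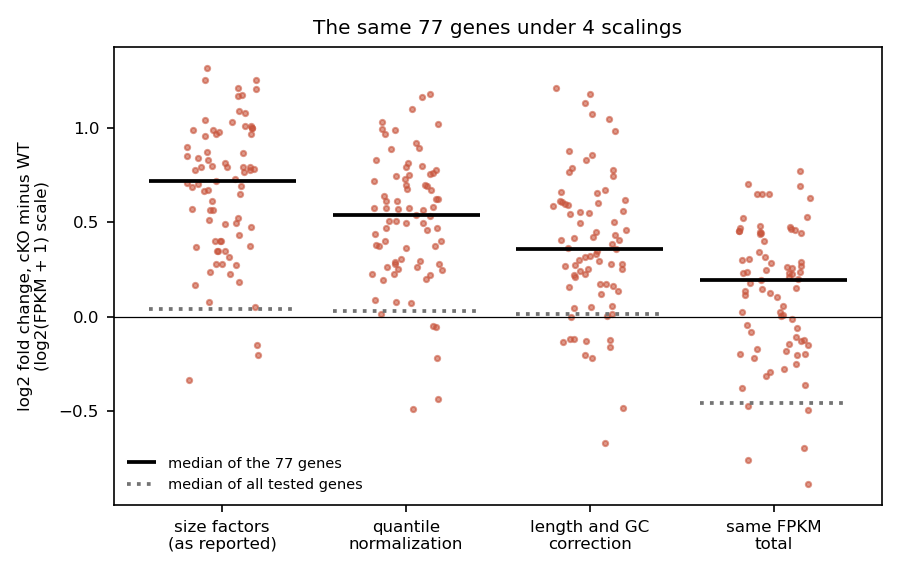
Log2 fold change (NSrp70-cKO minus WT, y axis, log2(FPKM + 1) scale) of the 77 mitochondrial ribosomal protein genes (points) under 4 scalings (x axis), with solid lines for their median and dotted lines for the median of all tested genes. The members' median is 0.72 with size factors and 0.19 at the same FPKM total, where the median of all genes is at -0.45.

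The rise was seen in each NSrp70-cKO library. The 77 genes summed to 3295, 3299 and 3294 FPKM in the WT libraries and to 5648, 5223 and 6317 FPKM in the NSrp70-cKO libraries, with no overlap. As a share of all FPKM, which does not depend on the scaling, they made up 0.620%, 0.633% and 0.623% in WT and 0.714%, 0.745% and 0.743% in NSrp70-cKO libraries, so the share was higher in 3 of 3 libraries. Against the WT mean, the median log2 ratio of the members was 0.68 in cKO 1, 0.55 in cKO 2 and 0.83 in cKO 3, beside 0.03, 0.06 and 0.05 for all tested genes. The library cKO 2 had the lowest FPKM of the 3 for 52 of the 77 members and for 4079 of the 10326 tested genes. Without it, 72 members were called higher and 20 of them by 2-fold or more. Their median log2 fold change was then 0.79, beside 0.04 for all tested genes. Without cKO 3, 63 were called higher and 7 by 2-fold or more, with a median of 0.65 beside 0.04. How many of all tested genes were called without these libraries is not given here, so the counts have no share to be read against.

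**Figure D2:**
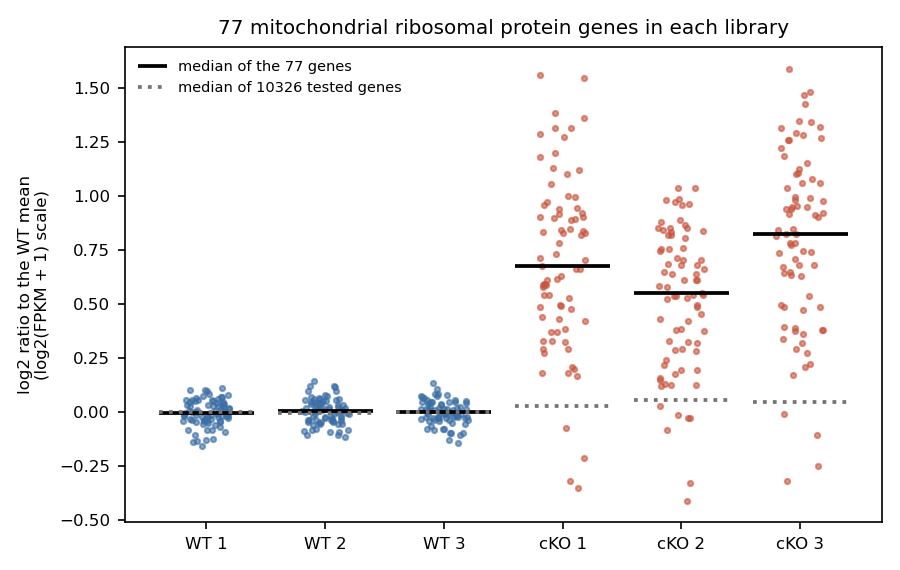
Log2 ratio to the WT mean (y axis, log2(FPKM + 1) scale after size factors) of each of the 77 mitochondrial ribosomal protein genes (points) in each of the 6 libraries (x axis), with solid lines for their median and dotted lines for the median of the 10326 tested genes. The members' medians in cKO 1, cKO 2 and cKO 3 are 0.68, 0.55 and 0.83, while WT libraries centre on 0.

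With size factors, members of both subunits were called higher more often than the 35.8% of all tested genes. At the same FPKM total 8.74% of all tested genes were called higher and 59.9% lower. Of 50 large-subunit members, which here include Mrps18a and Mrps30 since both proteins sit in the large subunit, 45 were called higher and 1 lower, with a median log2 fold change of 0.75. Scaled to the same FPKM total, 23 of them were called higher and 6 lower, and with WT as 1 sample 21 were higher and 0 lower. Of 26 small-subunit members, 22 were called higher and 0 lower, with a median of 0.67. At the same FPKM total 8 of these were called higher and 4 lower. With WT as 1 sample fewer were called than with size factors. The remaining member, Mrps36, is a component of the 2-oxoglutarate dehydrogenase complex rather than of the ribosome. Its log2 fold change was 0.96 ± 0.09 (SE, adjusted p = 0.00026), which the correction for length and GC content took to 0.15 (adjusted p = 0.137). Pseudogenes named after Mrps36 number 3, so its reads could have been shared. The 48 members of bacterial families had a median of 0.77, with 44 called higher and 0 lower (20 and 4 at the same FPKM total, 18 and 0 with WT as 1 sample). The 28 found only in mitochondria had a median of 0.59, with 23 called higher and 1 lower (11 and 6 at the same FPKM total, 10 and 0 with WT as 1 sample). All 3 members with a negative fold change, Mrpl43, Mrps26 and Mrps25, were of the mitochondrial kind. No test was made between these groups.

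**Figure D3:**
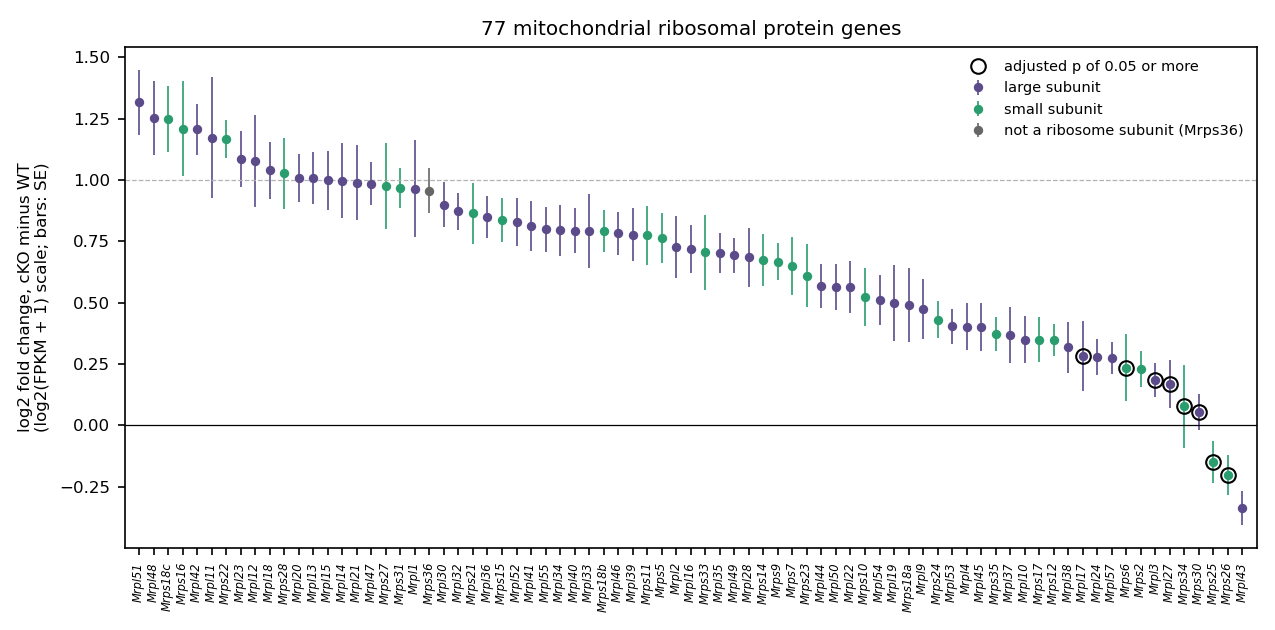
Log2 fold change (NSrp70-cKO minus WT, y axis, log2(FPKM + 1) scale) of the 77 mitochondrial ribosomal protein genes (x axis), ordered by size and coloured by subunit, with bars for the standard error and rings around members with an adjusted p of 0.05 or more. It runs from 1.32 for Mrpl51 to -0.34 for Mrpl43, with 74 members above 0 (51 when libraries are scaled to the same FPKM total).

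Mrpl51, a large-subunit protein known only from mitochondria, had the highest fold change. It was at 24.8, 23.9 and 25.2 FPKM in WT and at 62.6, 52.1 and 76.2 in NSrp70-cKO libraries without overlap, and its log2 fold change was 1.32 ± 0.13 (SE, adjusted p = 0.0003). Mrpl48, of the central protuberance of the large subunit, was at 38.8, 39.1 and 42.2 FPKM in WT and at 106, 75.5 and 114 in NSrp70-cKO, with a log2 fold change of 1.25 ± 0.15 (SE; adjusted p, 0.000544). A pseudogene is named after Mrpl48, so its reads could have been shared. Mrps18c, one of 3 mammalian versions of bacterial protein S18, was at 137, 126 and 139 FPKM in WT and at 333, 264 and 371 in NSrp70-cKO, with a log2 fold change of 1.25 ± 0.13 (SE; adjusted p, 0.00036). Mrps16, a small-subunit protein whose loss causes a human respiratory chain disease, was at 100.1, 93.2 and 93.0 FPKM in WT and at 282, 162 and 239 in NSrp70-cKO, with a log2 fold change of 1.21 ± 0.19 (SE; adjusted p, 0.00158). In these 4 genes the groups did not overlap, and cKO 2 was the lowest of the 3 NSrp70-cKO libraries each time.

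Mrpl42, another protein known only from mitochondria, was at 68.1, 64.9 and 63.9 FPKM in WT and at 161, 132 and 168 in NSrp70-cKO. Its log2 fold change was 1.21 ± 0.10 (SE, adjusted p = 0.000187). Mrps22, in the small subunit, was at 17.0, 17.5 and 17.1 FPKM in WT and at 40.1, 36.6 and 43.3 in NSrp70-cKO, a log2 fold change of 1.17 ± 0.08 that had the smallest standard error among the 8 largest (adjusted p = 0.000106). Mrpl23, which lines the exit of the peptide tunnel, was at 83.4, 89.8 and 84.4 FPKM in WT and at 188, 157 and 208 in NSrp70-cKO, with a log2 fold change of 1.09 ± 0.11 (SE; adjusted p, 0.00032). The groups again did not overlap, though for Mrpl23 a pseudogene of its name leaves the assignment of reads uncertain. With WT counted as 1 sample, Mrpl51, Mrpl48, Mrps18c, Mrpl42, Mrps22 and Mrpl23 were still called (adjusted p between 0.0294 and 0.036), and Mrps16 and Mrpl11 were not (0.0522 and 0.0743). All 8 were also called higher at the same FPKM total, with log2 fold changes of 0.53 to 0.77, and with the length and GC correction. That correction lowered Mrpl42 to 0.36, Mrps18c to 0.40 and Mrps22 to 0.59, and left the other 5 between 0.88 and 1.21.

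**Figure D4:**
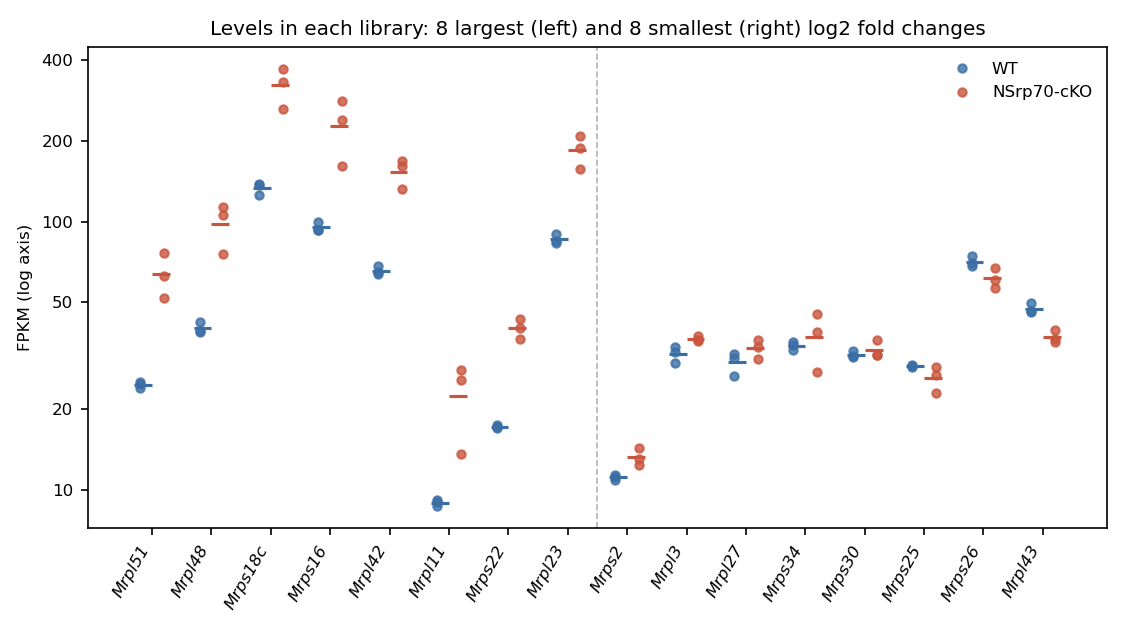
FPKM (y axis, log axis) of the 8 members with the largest and the 8 with the smallest log2 fold changes (x axis), with 1 point per library, WT on the left and NSrp70-cKO on the right of each gene, and short lines for the mean of 3 libraries. The left genes separate fully, for example Mrps22 at 17.0 to 17.5 against 36.6 to 43.3 FPKM, while most right genes overlap or nearly touch. With libraries scaled to the same FPKM total all 8 right genes have negative fold changes, where the median of all tested genes is -0.45.

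The L7/L12 stalk, with which translation factors make contact on the large subunit, was measured through Mrpl10, Mrpl11 and Mrpl12. All 3 were called higher with size factors, against 35.8% of tested genes, 2 of them at the same FPKM total, and 0 with WT as 1 sample (adjusted p between 0.0586 and 0.212). Mrpl12, the protein that forms the flexible stalk and that also binds the mitochondrial RNA polymerase, was at 58.2, 53.8 and 53.7 FPKM in WT and at 143, 85.4 and 134 in NSrp70-cKO, with a log2 fold change of 1.08 ± 0.19 (SE; adjusted p, 0.00224). Mrpl11, at the stalk base, was at 9.14, 9.03 and 8.67 FPKM in WT and at 28.0, 13.6 and 25.7 in NSrp70-cKO, with a log2 fold change of 1.17 ± 0.25 (SE; adjusted p, 0.00491). Mrpl10, which joins them, was at 25.5, 25.2 and 26.9 FPKM in WT and at 36.7, 29.2 and 34.2 in NSrp70-cKO, a log2 fold change of only 0.35 ± 0.10 (adjusted p = 0.0148), and it went to -0.19 at the same FPKM total. In each of the 3 genes cKO 2 was closest to WT, and for Mrpl11 and Mrpl12 it lay far below the other libraries of its genotype. At the same FPKM total 8.74% of all tested genes were called higher.

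Around the peptidyl transferase centre, where peptide bonds form, 3 of 5 listed members were called higher, against 35.8% of tested genes, and the median log2 fold change was 0.40. This group turned with the scaling, as 0 were called higher and 2 lower at the same FPKM total, with a median of -0.14, and 0 were called either way with WT as 1 sample. All tested genes moved at the same FPKM total too, to a median of -0.45, with 8.74% called higher and 59.9% lower. Mrpl2 was at 31.8, 34.0 and 33.1 FPKM in WT and at 59.2, 45.2 and 62.9 in NSrp70-cKO (log2 fold change 0.73 ± 0.13, adjusted p = 0.00214). Mrpl16 was at 9.85, 9.95 and 10.4 FPKM in WT and at 19.6, 15.2 and 17.1 in NSrp70-cKO (0.72 ± 0.10, adjusted p = 0.000833). Both separated fully between genotypes. Mrpl4 was at 29.9, 31.3 and 27.6 FPKM in WT and at 41.8, 34.9 and 42.1 in NSrp70-cKO, a smaller difference of 0.40 ± 0.10 in log2 (adjusted p = 0.00834) that went to -0.14 at the same FPKM total. The other 2, Mrpl3 and Mrpl27, are among the members with the smallest fold changes.

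Of the members at the exit tunnel, the 5 listed, Mrpl22, Mrpl23, Mrpl24, Mrpl44 and Mrpl45, were called higher, with a median log2 fold change of 0.56. The share of all tested genes called higher was 35.8% (8.74% at the same FPKM total, where 59.9% were called lower). Only Mrpl23 was still called higher at the same FPKM total, where the median was 0.01, or with WT as 1 sample. Besides Mrpl23, Mrpl22 was at 38.2, 45.9 and 42.4 FPKM in WT and at 54.4, 67.7 and 66.5 in NSrp70-cKO (0.56 ± 0.11, adjusted p = 0.00309). Mrpl44, an RNase III-like protein at the tunnel side, was at 20.5, 22.8 and 22.2 FPKM in WT and at 29.9, 32.1 and 37.0 in NSrp70-cKO (0.57 ± 0.09, adjusted p = 0.00159). Mrpl45, which anchors the ribosome to the inner membrane, was at 13.8, 15.7 and 12.7 FPKM in WT and at 17.8, 18.0 and 20.8 in NSrp70-cKO (0.40 ± 0.10, adjusted p = 0.00896), and Mrpl24 at 72.5, 72.8 and 71.7 against 87.4, 82.5 and 94.5 FPKM (0.28 ± 0.07, adjusted p = 0.0123). At the same FPKM total Mrpl24 was called lower (-0.28, adjusted p = 0.00721) and Mrpl45 went to -0.13, and the correction for length and GC content took Mrpl22 to -0.16 and Mrpl24 to -0.13.

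The central protuberance, the crown of the large subunit that faces the small subunit, was represented by Mrpl18, Mrpl38, Mrpl40, Mrpl46 and Mrpl48. Beside 35.8% of tested genes called higher (8.74% at the same FPKM total), all 5 were called higher, with a median log2 fold change of 0.79. Except for Mrpl38, they were also called higher at the same FPKM total (median 0.24) and with WT as 1 sample. Mrpl18 was at 101, 104 and 103 FPKM in WT and at 199.7, 189.9 and 253 in NSrp70-cKO (1.04 ± 0.11, adjusted p = 0.000395). Mrpl40 was at 31.1, 32.8 and 30.8 FPKM in WT and at 56.2, 49.2 and 61.4 in NSrp70-cKO (0.79 ± 0.09, adjusted p = 0.000476). Mrpl38, in the same crown, differed least among them, at 17.9, 18.6 and 19.0 against 27.3, 21.5 and 21.5 FPKM (0.32 ± 0.10, adjusted p = 0.0293), and it went to -0.22 at the same FPKM total.

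On the decoding side of the small subunit, Mrps5, Mrps7, Mrps11 and Mrps12 were all called higher, with a median log2 fold change of 0.71. Of all tested genes, 35.8% were called higher (8.74% at the same FPKM total). At the same FPKM total Mrps11 alone was called higher, with a median of 0.16 for the 4, and with WT as 1 sample Mrps5 alone was (adjusted p = 0.04997). Mrps5, near the mRNA entrance, was at 37.0, 38.6 and 40.1 FPKM in WT and at 73.4, 57.5 and 68.6 in NSrp70-cKO (0.76 ± 0.10, adjusted p = 0.000753). Mrps7, which helps to nucleate the head of the subunit, was at 26.8, 27.6 and 26.9 FPKM in WT and at 48.7, 35.7 and 45.9 in NSrp70-cKO (0.65 ± 0.12, adjusted p = 0.00269). Mrps12, which monitors codon and anticodon pairing, was at 36.5, 40.2 and 37.9 FPKM in WT and at 46.8, 50.6 and 49.3 in NSrp70-cKO (0.35 ± 0.07, adjusted p = 0.00298), and it went to -0.20 at the same FPKM total. All of these groups were apart, with the smallest gap in Mrps12.

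The 3 genes for S18-type proteins differed in size of change. Each protein takes its own place in the ribosome, Mrps18b and Mrps18c in the small subunit and Mrps18a in the large one. Mrps18b was at 15.6, 14.1 and 15.9 FPKM in WT and at 29.5, 25.5 and 26.1 in NSrp70-cKO (0.79 ± 0.08, adjusted p = 0.000356). Mrps18a was at 31.2, 28.8 and 31.5 FPKM in WT and at 48.7, 33.6 and 49.2 in NSrp70-cKO (0.49 ± 0.15, adjusted p = 0.0241), and at the same FPKM total it was at -0.06. Mrps18c was thus the most abundant of the 3 in both genotypes, and its lowest NSrp70-cKO library was above every library of the others. The difference in fold change between the 3 genes was not tested.

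The rank order of levels was largely kept between genotypes. Mean WT levels ran from 1.89 to 189 FPKM with a median of 32.9, beside 14.6 for all tested genes, and the median of the NSrp70-cKO means was 46.8. Over the 77 genes the WT and NSrp70-cKO means had a Spearman rho of 0.94, a description over genes that share libraries. Mean WT level had a rho of -0.51 with transcript length, so members with short transcripts tended to rank high. Mrps21, the highest, was at 202, 178 and 187 FPKM in WT and at 287, 378 and 376 in NSrp70-cKO (0.86 ± 0.12, adjusted p = 0.000998). This small-subunit protein is short, and its fold change went to 0.05 (adjusted p = 0.78) with the correction for length and GC content.

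After it came Mrpl33, Mrps18c, Mrpl30 and Mrpl52, all in the large subunit except Mrps18c, and the WT libraries of Mrps18c, Mrpl30 and Mrpl52 lay in overlapping ranges. Mrpl33 was at 138, 158 and 159 FPKM in WT and at 209.7, 273 and 316 in NSrp70-cKO (0.79 ± 0.15, adjusted p = 0.00331), and it was at -0.22 (adjusted p = 0.291) with that correction. Mrpl30 was at 138, 129 and 129 FPKM in WT and at 247, 226 and 272 in NSrp70-cKO (0.90 ± 0.09, adjusted p = 0.0003). Mrpl52 was at 123, 131 and 124 FPKM in WT and at 199, 225 and 252 in NSrp70-cKO (0.83 ± 0.10, adjusted p = 0.000498). Among the 5 most abundant members, Mrps18c and Mrpl30 were still called under the length and GC correction, with smaller log2 fold changes of 0.40 and 0.32 (adjusted p = 0.0182 and 0.00541), and Mrpl52 was not (0.25, adjusted p = 0.189).

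At the low end, Mrpl17, a large-subunit protein of a bacterial family, was at 2.05, 1.72 and 1.89 FPKM in WT and at 3.03, 1.85 and 2.76 in NSrp70-cKO, so the groups overlapped through cKO 2 (0.28 ± 0.14, adjusted p = 0.122). Mrpl1, which forms the mobile L1 stalk, was at 6.50, 5.49 and 6.08 FPKM in WT and at 15.9, 8.91 and 14.3 in NSrp70-cKO (0.96 ± 0.20, adjusted p = 0.00432). Mrpl19 was at 6.30, 6.01 and 6.17 FPKM in WT and at 10.9, 6.86 and 10.1 in NSrp70-cKO (0.50 ± 0.16, adjusted p = 0.0253). For all 3 the library cKO 2 lay closest to WT, and without it Mrpl17 was called higher (0.44, adjusted p = 0.0045).

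Mrpl43 was the only member called lower. It lies on GRCm38 (the assembly of mm10) at chr19:45004829-45006442 on the minus strand, and it was at 45.9, 49.6 and 46.4 FPKM in WT and at 36.6, 35.6 and 39.6 in NSrp70-cKO, apart without overlap, a log2 fold change of -0.34 ± 0.07 (adjusted p = 0.00459). With WT as 1 sample it was not called (adjusted p = 0.176). Of the 1520 exonic bases of Mrpl43, 507 are shared with exons of Peo1, the mitochondrial DNA helicase gene on the opposite strand, whose own log2 fold change was 0.07 (adjusted p = 0.46). The kit marks strand, but the strand setting of the counting is not given in the sources used here, so reads of both genes may have been mixed.

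The 2 other members with negative fold changes, both in the small subunit, were not called. Mrps26 was at 74.2, 69.8 and 68.2 FPKM in WT and at 60.7, 67.4 and 56.6 in NSrp70-cKO (-0.20 ± 0.08, adjusted p = 0.0604). Mrps25 was at 28.73, 29.1 and 29.1 FPKM in WT and at 22.9, 28.70 and 26.8 in NSrp70-cKO (-0.15 ± 0.09, adjusted p = 0.161), with the highest NSrp70-cKO library just under the lowest WT library. At the same FPKM total Mrpl43, Mrps26 and Mrps25 were all called lower (-0.89, -0.76 and -0.69), as were 59.9% of all tested genes, whose median was -0.45.

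Of the 5 remaining members with the smallest fold changes, Mrps2 alone was called higher, at 11.3, 11.2 and 10.9 FPKM in WT and 13.0, 12.4 and 14.3 in NSrp70-cKO (0.23 ± 0.07, adjusted p = 0.0288). Mrpl3 was at 29.7, 32.6 and 34.0 FPKM in WT and at 36.3, 36.0 and 37.6 in NSrp70-cKO, apart but not called (0.18 ± 0.07, adjusted p = 0.0519). Mrpl27 was at 26.6, 31.0 and 32.2 FPKM in WT and at 34.2, 30.7 and 36.3 in NSrp70-cKO, with overlap (0.17 ± 0.10, adjusted p = 0.168). The proteins of Mrpl3 and Mrpl27 lie near the peptidyl transferase centre, and that of Mrps2 lies between the head and the body of the small subunit.

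Mrps34, needed for a stable small subunit, was at 35.5, 33.2 and 34.6 FPKM in WT and spread over 45.1, 27.4 and 38.9 in NSrp70-cKO libraries, on both sides of WT (0.08 ± 0.17, adjusted p = 0.709). Mrps30 was at 33.1, 31.4 and 31.3 FPKM in WT and at 36.1, 31.9 and 31.7 in NSrp70-cKO, within the WT range in 2 of 3 libraries (0.05 ± 0.08, adjusted p = 0.55). At the same FPKM total all 5 of these members had negative log2 fold changes, from -0.29 for Mrps2 to -0.49 for Mrps30, each called lower. Of all tested genes 59.9% were called lower at that scaling, with a median of -0.45.

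Some members share exonic bases with genes on the opposite strand. Of the 9 members not called higher, 5 do so with a coding gene, and of the 68 called higher, 15 do. Mrps34, at chr17:24895116-24897502, shares 1309 of its 2064 exonic bases with Mapk8ip3, whose log2 fold change was -1.58 (adjusted p = 0.000649). Mrps25, at chr6:92169525-92184033, shares 4590 of 6576 with Nr2c2 (log2 fold change -0.16, adjusted p = 0.139). Among the 57 members with no such overlap, 53 were called higher and 0 lower, with a median log2 fold change of 0.73 (23 and 4 at the same FPKM total, 20 and 0 with WT as 1 sample). Of the 20 with such an overlap, 15 were called higher and 1 lower, with a median of 0.67 (9 and 6 at the same FPKM total, 9 and 0 with WT as 1 sample). Among all tested genes 35.8% were called higher and 29.8% lower, and at the same FPKM total 8.74% and 59.9%. Whether shared exons moved any value was not tested.

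Close neighbours on the other strand were compared with the members. Of the 77 genes, 33 start within 1000 bases of the start of a coding gene on the other strand, so that 1 stretch of DNA can serve as promoter for both. One such pair joins 2 members, Mrpl46 and Mrps11, whose annotated starts on chromosome 7 are 412 bases apart with overlapping first exons. Mrpl46, of the central protuberance, was at 35.7, 36.7 and 35.3 FPKM in WT and at 59.0, 58.8 and 70.5 in NSrp70-cKO (0.78 ± 0.09, adjusted p = 0.000391), and Mrps11, of the small-subunit platform, at 33.7, 29.0 and 31.0 against 56.6, 45.8 and 61.2 FPKM (0.78 ± 0.12, adjusted p = 0.00136). In levels and in fold change the pair was close in both genotypes.

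In the 26 pairs whose neighbour is no member and was tested, 23 of the members were called higher with a median log2 fold change of 0.80, whereas 10 neighbours were called higher, 8 lower and 8 not called, with a median of 0.06. The neighbours' shares, 10 and 8 of 26, were near those of all tested genes, 35.8% higher and 29.8% lower with a median of 0.04. Over all 33 members with such a neighbour, 29 were called higher and 1 lower. At the same FPKM total 16 of these members were called higher and 5 lower, against 8.74% and 59.9% of tested genes. Values of the neighbours are given with size factors only. Neighbours that were higher included Fau, which encodes a cytosolic ribosomal protein, beside Mrpl49 (1.23 against 0.69 for the member), Ndufs6, a complex I subunit, beside Mrpl36 (1.20 against 0.85) and Psma2, a proteasome subunit, beside Mrpl32 (0.79 against 0.87). Neighbours that were lower included Tmem63b beside Mrpl14 (-1.57 against 1.00), Gga3, a Golgi sorting adaptor, beside Mrps7 (-1.08 against 0.65) and Hira, a histone chaperone, beside Mrpl40 (-0.77 against 0.79). Ncapd2, a condensin subunit beside Mrpl51, and Helq, a DNA helicase beside Mrps18c, had log2 fold changes of 0.02 and 0.05, although the 2 members were among the 3 with the highest.

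**Figure D5:**
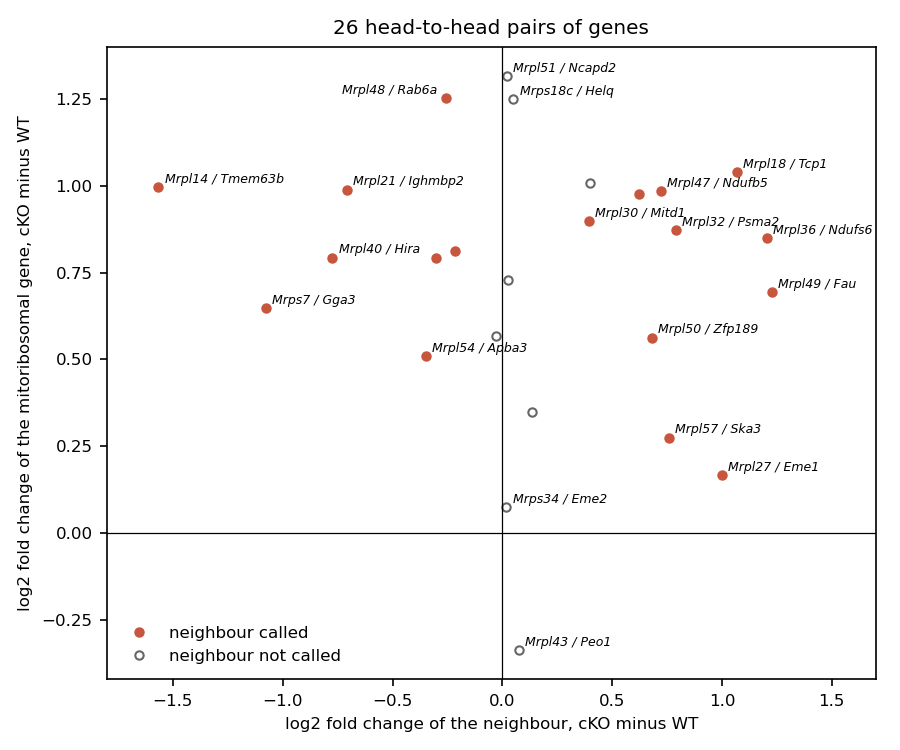
Log2 fold change (NSrp70-cKO minus WT) of 26 members (y axis) against that of the coding gene on the other strand whose start lies within 1000 bases (x axis), with filled points where the neighbour was called and open points where it was not. Members sit mostly between 0.5 and 1.3, with a median of 0.80, while their neighbours spread from -1.57 to 1.23 around a median of 0.06.

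Promoter sequences were read from RefSeq (GRCm38.p6, 250 bases before to 50 bases after each start), which held 68 of the 77 members. Shares below are of genes with a match in at least 1 of their promoters, so a gene with several promoters had more chances. Letters that ETS factors such as GABPA (NRF-2) can bind are CCGGAAG on either strand. They were found for 36.8% of these members, against 23.2% of the 7923 tested genes held and 9.93% of all 27025 genes held. The NRF1 letters, GCGC and TGCGC around any 1 base, were in 19.1%, against 13.2% and 5.19%, and the YY1 letters AAGATGGCG in 11.8%, against 4.25% and 1.64%. These are factors known as regulators of nuclear genes for mitochondria. The GC box GGGCGG was found for 34 of the 68 members, against 70.5% and 38.2%, and the CCAAT box for 39.7%, against 43.5% and 41.1%. The E-box CACGTG was found for 7.35%, against 12.3% and 8.09%, and the TATA box letters TATAAA for 7.35%, against 7.80% and 15.7%. No pattern contains another, each was searched on both strands, and a match is a description of letters only.

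The ETS letters were present at both ends of the range of fold changes. Each line gives 29 bases on the strand that reads CCGGAAG (capitals), for members among the 8 largest and the 8 smallest fold changes, shown because the same core stands in promoters of members that rose and of members that did not.
Mrpl51: caggggctaaaCCGGAAGtatttgactgg
Mrpl48: gcatcttggttCCGGAAGtttttaaaacc
Mrps18c: cgcttcccgggCCGGAAGtcacgtgaccc
Mrps16: gagcctgaagcCCGGAAGagcgcccccaa
Mrps22: aacctctcgagCCGGAAGttgctctatcg
Mrpl3: tgagaaacggaCCGGAAGtggcccggctg
Mrpl27: gtccgcaagacCCGGAAGtagatctatcc
Mrps26: ctgcgcccggcCCGGAAGtggccgcggag
Mrpl43: caaccccggaaCCGGAAGtcaccggttag

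The first 5 of these lines belong to members with log2 fold changes of 1.17 to 1.32 and the last 4 to members between -0.34 and 0.18. Counted from the RefSeq start of each promoter, the core begins at -90 in Mrpl51 (chr6:125192099-125192127, plus strand), at -34 in Mrpl48 (chr7:100583147-100583175, plus strand), at -156 in Mrps18c (chr5:100798592-100798620, minus strand) and at -11 in Mrps22 (chr9:98601673-98601701, minus strand). Mrpl48 has 4 promoters in this set and Mrps16 has 2. The gene Mrpl48 spans chr7:100545751-100608301 on the minus strand, so the promoter with the core lies inside it. Mrps16 and Mrpl43 each hold the core in 2 places, of which those at -74 (chr14:20393547-20393575, plus strand) and -12 (chr19:45006437-45006465, minus strand) are printed. In Mrpl3, Mrpl27 and Mrps26 it begins at -19, -55 and -14. Of the 25 members with the core, 20 were called higher and 1 lower, with a median log2 fold change of 0.79, and of the 43 without it, 40 were called higher and 0 lower, with a median of 0.73. The order of these medians depended on the processing, since they were 0.40 with and 0.57 without the core after quantile normalization, 0.25 and 0.36 with the length and GC correction, and 0.23 and 0.20 at the same FPKM total. Among all tested genes 35.8% were called higher and 29.8% lower with size factors. The share called higher was 30.0% with the length and GC correction and 8.74% at the same FPKM total. With the length and GC correction 11 of 25 and 30 of 43 were called higher, at the same FPKM total 9 and 20, and with WT as 1 sample 7 and 19.

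Mrpl42 and Mrps22 had similar fold changes and are shown with their upstream sequences. The 250 bases before the RefSeq start of Mrpl42 (chr10:95501950-95502199, minus strand, log2 fold change 1.21) and of Mrps22 (chr9:98601680-98601929, minus strand, log2 fold change 1.17) hold no annotated exon. Mrpl42 has a GC box and a CCAAT box and no ETS core, and Mrps22 has a GC box and the ETS core (capitals) next to its start.
Mrpl42: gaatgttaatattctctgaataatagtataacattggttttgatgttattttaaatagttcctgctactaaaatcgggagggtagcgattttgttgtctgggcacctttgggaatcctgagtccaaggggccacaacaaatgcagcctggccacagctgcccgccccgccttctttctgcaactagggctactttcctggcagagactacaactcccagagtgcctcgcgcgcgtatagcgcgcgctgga
Mrps22: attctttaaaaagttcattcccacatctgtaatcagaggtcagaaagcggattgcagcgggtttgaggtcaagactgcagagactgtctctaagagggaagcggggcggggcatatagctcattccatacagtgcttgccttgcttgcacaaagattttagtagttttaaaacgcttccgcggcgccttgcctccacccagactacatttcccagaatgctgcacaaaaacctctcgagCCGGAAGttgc

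Transcript features were compared with the size of the change as a description. The members' transcripts were short, with a median of 1288 bases and a range of 418 to 7300, beside 2876 bases for all tested genes. Over the 77 genes the log2 fold change had a Spearman rho of -0.21 with transcript length, -0.07 with GC content and 0.17 with the mean WT level, where points share the same libraries. Over 10242 tested genes the same values were -0.30 for length and -0.34 for GC content. The members lay on 17 chromosomes, with 10 on chromosome 11, the most on any.

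Some ribosomal proteins have symbols that do not start with Mrp. Of 6 such genes, 5 were called higher and 0 lower, beside 35.8% and 29.8% of tested genes, with a median log2 fold change of 0.52. These shares of tested genes were 8.74% and 59.9% at the same FPKM total. The same FPKM total left 2 called higher and 1 lower, with a median of -0.03, and WT as 1 sample left 2 and 0. Dap3, the GTP-binding protein of the small subunit, was at 30.1, 30.3 and 30.3 FPKM in WT and at 46.9, 33.1 and 46.2 in NSrp70-cKO (0.44 ± 0.14, adjusted p = 0.0235). Ict1 (MRPL58), a peptidyl-tRNA hydrolase built into the large subunit, was at 139.8, 143 and 144 FPKM in WT and at 306, 243 and 326 in NSrp70-cKO (1.02 ± 0.12, adjusted p = 0.000494). Gadd45gip1 (MRPL59) was not called, at 16.7, 18.4 and 18.0 against 23.4, 14.9 and 21.8 FPKM, on both sides of WT (0.14 ± 0.16, adjusted p = 0.462).

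The direction of the factors that work with the ribosome depended on the scaling, as did the median of all tested genes. At the same FPKM total 8.74% of all tested genes were called higher and 59.9% lower, with a median of -0.45. Of 11 mitochondrial translation factors, 5 were called higher and 0 lower, beside 35.8% and 29.8% of tested genes, with a median log2 fold change of 0.24. Scaled to the same FPKM total, 2 were called higher and 4 lower, with a median of -0.26, and 1 was called higher with WT as 1 sample. Tufm, the elongation factor that brings aminoacyl-tRNA to the ribosome, was at 51.9, 52.8 and 48.1 FPKM in WT and at 108, 67.1 and 97.9 in NSrp70-cKO (0.80 ± 0.17, adjusted p = 0.00555). The others called higher with size factors were the ribosome recycling factor Mrrf (0.89), the release factor Mtrf1 (0.82), the elongation factor Gfm1 (0.45) and the initiation factor Mtif3 (0.32). Of 23 genes for mitoribosome assembly and rRNA modification, 14 were called higher and 1 lower, the RNA helicase Dhx30, with a median of 0.32. Here 1 was called higher and 9 lower at the same FPKM total, with a median of -0.21, and 1 and 0 with WT as 1 sample. Dhx30 was at 31.3, 29.0 and 29.8 FPKM in WT and at 23.0, 26.2 and 23.5 in NSrp70-cKO (-0.30 ± 0.07, adjusted p = 0.00809), and the correction for length and GC content took it to 0.18 (adjusted p = 0.0748).

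Of 13 genes that copy and transcribe mitochondrial DNA, 4 were called higher and 3 lower, with a median log2 fold change of 0.17. These shares lay below those of all tested genes (35.8% and 29.8%), and 1 was called higher and 7 lower at the same FPKM total, with a median of -0.37, and 2 and 1 with WT as 1 sample. Polrmt, the mitochondrial RNA polymerase, was at 12.9, 13.2 and 12.6 FPKM in WT and at 9.41, 7.92 and 7.39 in NSrp70-cKO (-0.60 ± 0.09, adjusted p = 0.00142). Polg, the catalytic subunit of the DNA polymerase, was at 41.4, 40.9 and 42.8 FPKM in WT and at 19.9, 24.5 and 20.4 in NSrp70-cKO (-0.92 ± 0.09, adjusted p = 0.000222), and its accessory subunit Polg2 was called lower too (-0.67, adjusted p = 0.012). In these 3 genes the genotypes were apart without overlap, but the correction for length and GC content took Polrmt to 0.04 (adjusted p = 0.615).

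Tfam, which packs mitochondrial DNA and starts its transcription, was not called, at 16.4, 17.0 and 17.5 against 17.8, 19.0 and 20.9 FPKM (0.17 ± 0.08, adjusted p = 0.0887). Lrpprc, which stabilizes mitochondrial mRNA, was called higher, at 10.3, 10.2 and 10.7 against 14.6, 12.9 and 12.9 FPKM (0.34 ± 0.07, adjusted p = 0.00542), as was its partner Slirp, at 75.0, 74.8 and 80.1 against 172, 178 and 252 FPKM (1.36 ± 0.15, adjusted p = 0.000375). Over the 53 genes of these 4 lists together, 28 were called higher and 4 lower. At the same FPKM total 6 were called higher and 21 lower, against 8.74% and 59.9% of all tested genes. The direction of Dap3, Lrpprc and Tfam turned at that scaling, to -0.10, -0.17 and -0.37. With WT as 1 sample, 6 were called higher and 1 lower, Polg.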

How the data were processed

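Poly(A)-enriched, directional mRNA-seq libraries of sorted DP thymocytes were made, 3 per genotype. The authors mapped the reads to mm10 with TopHat, computed 1 FPKM value per symbol and library with Cufflinks, and deposited these values. Versions, annotation and strand setting are not given in the sources used here. FPKM values are not counts, so no count test was run. Depth was estimated from the FPKM step of 1 fragment at 2525 genes with 1 transcript, assuming fragments of 200 bases, and it sets counting error only.

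FPKM values were divided by size factors (median ratio to the geometric mean) and fitted by genotype as log2(FPKM + 1) with limma 3.58.1 in R 4.3.3 (lmFit, eBayes with trend) over the 10326 genes that reached 1 FPKM in 3 libraries or more. P-values are two-sided and adjusted by the Benjamini-Hochberg method over all these genes, and a gene was called at an adjusted p under 0.05. The fold changes are on this log2(FPKM + 1) scale and understate the change of low genes. Alternatives were a pseudocount of 0.1, no filter, no size factor, the same FPKM total, quantile normalization, a correction for transcript length and GC content by splines, a replicate block, no trend, WT counted as 1 sample and each library left out. Gene positions came from GENCODE on GRCm38. Python 3.11.15 with pandas 2.3.3 and matplotlib 3.10.9 was used for summaries and figures.

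The members and gene lists were chosen with earlier results of these data known. Named are the 8 largest and 8 smallest fold changes, the 5 highest and 3 lowest members in WT, the S18 genes, the structural groups, chosen partners of the ribosome and list genes called lower. Neighbours and the other list genes named were chosen after their values were seen. Some listed cell type markers are not reported here, irrespective of how they changed, and the counts and sums of their lists leave them out.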

Additional observations from a re-analysis of the deposited data

How the results depend on the processing

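The median log2 fold change of the members stayed positive under every alternative. It was 0.19 at the same FPKM total, 0.54 with quantile normalization and 0.36 with the length and GC correction, and for large-subunit members 0.22, 0.57 and 0.38, and for small-subunit members 0.12, 0.49 and 0.34. Scaling to the same FPKM total changed most counts: 902 genes were called higher and 6181 lower, 32 members higher, 10 lower and 0 higher by 2-fold or more, 37 apart upward and 13 downward, and 6 and 21 list genes. With WT as 1 sample, 744 genes were called higher and 901 lower, 29 members higher and 0 lower, and 6 and 1 list genes. Members called higher by 2-fold or more numbered 20 with a pseudocount of 0.1 and 5 with quantile normalization or the length and GC correction, both of which called 2 members lower, and that correction called 7 list genes lower. Leaving out 1 library gave 60 to 72 members called higher, 1 to 3 lower, 7 to 20 higher by 2-fold or more, and 4 to 7 list genes lower. The highest numbers (72, 3, 20 and 7) were those without cKO 2. Without a WT library 60 to 62 members were called higher, beside 3071 to 3114 of the 10100 to 10104 genes tested. Counts over all genes without an NSrp70-cKO library are not given here. The cause of these shifts was not tested.

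Directions that turned at the same FPKM total were those of Mrpl10 (-0.19), Mrpl17 (-0.11), Mrpl24 (-0.28), Mrpl27 (-0.38), Mrpl3 (-0.36), Mrpl38 (-0.22), Mrpl4 (-0.14), Mrpl45 (-0.13), Mrps12 (-0.20), Mrps18a (-0.059), Mrps2 (-0.29), Mrps30 (-0.49), Mrps34 (-0.47), Dap3 (-0.10), Gadd45gip1 (-0.39), Lrpprc (-0.17) and Tfam (-0.37). With the length and GC correction they were those of Mrpl22 (-0.16), Mrpl24 (-0.13), Mrpl27 (-0.48), Mrpl33 (-0.22), Mrps30 (-0.12), Dhx30 (0.18) and Polrmt (0.039). That correction also took Mrps36 to 0.15 and Mrps21 to 0.052, neither of them called. Mrps30 and Mrps34 also turned with quantile normalization (-0.047 and -0.052) and when 1 library was left out, with ranges of -0.0029 to 0.091 and of -0.072 to 0.28, the negative values being those without cKO 1. Direction was followed for 51 of the genes named in the text, 42 of them members, and no other of these 51 turned. The remaining named genes, among them Gfm1, Mtif3, Cd4, Cd8a and the neighbours, were not followed, so some of them may have turned.

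WT and NSrp70-cKO libraries of the same number did not deviate together (correlations of -0.02, 0.04 and 0.03 across genes). Libraries of different numbers gave correlations from -0.07 to 0.05. Since pairs of WT libraries varied only 1.26 to 1.34 times as much as counting noise, these values cannot show whether the numbers pair the libraries. With the replicate block, 67 members were higher and 1 lower with a median of 0.72. Which members depth limits most was not assessed, since it depends on level and transcript length together. Mrpl17 had the lowest FPKM but a transcript of 7300 bases.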
